A study of Homo sapiens with 4 samples.

Results

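The 9 genes described here, HLA-B, HLA-C, HLA-E, HLA-F, B2M, TAP1, TAP2, PSMB8 and PSMB9, serve the presentation of peptides by MHC class I molecules and were taken by name from 58735 genes counted in each RNA-seq library. All 9 passed the filter on low counts, among 16343 genes tested. The 4 libraries were made from MKN-45, a cell line established from a human gastric cancer, per their labels. Of these, 2 were labelled SIX2 overexpression (lentivirus carrying SIX2, a homeobox transcription factor) and 2 control (control lentivirus). Both groups were selected with puromycin for stable infection, and nothing in the labels says that a library came from a single clone. The sample titles number the libraries 1 and 2 within each group, and that number has no further meaning in the labels. The 3 comparisons were SIX2-labelled against control over all libraries, SIX2-labelled against control within each number, and number 2 against number 1.

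Class I molecules show peptides from inside a cell to CD8+ T cells and, through some members, to natural killer cells. Proteasomes cut proteins into peptides, and the interferon-induced subunits PSMB8 and PSMB9 replace the standard subunits PSMB5 and PSMB6 in the immunoproteasome. The TAP1-TAP2 transporter carries the peptides into the endoplasmic reticulum. There they are loaded onto a heavy chain, encoded by the HLA genes, that is bound to the light chain beta-2-microglobulin, encoded by B2M. Interferons, NF-kB and the coactivator NLRC5 are known to raise the transcription of these genes, and tumours often lower it.

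Of the 9 genes, 8 lie in the MHC on chromosome 6 and B2M lies on chromosome 15. In the coordinates of the files, on GRCh38, TAP2 (chr6:32821833-32838780), PSMB8 (chr6:32840717-32844703), TAP1 (chr6:32845209-32853978) and PSMB9 (chr6:32844136-32859585) form 1 cluster. TAP1 and PSMB9 are transcribed away from each other, and in RefSeq their starts are 488 bases apart, so that the windows printed here share 13 bases. The annotated span of PSMB9 overlaps TAP1, with 0 exon bases in common, and shares 139 exon bases with PSMB8 on the opposite strand. The strand setting of the counting is not given in the sources used here. Reads in those bases, and in the antisense genes PSMB8-AS1 and HLA-F-AS1, thus cannot be told apart from the members' own. TAP2 shares 2064 exon bases, 32.3% of its own, with AL669918.1 on the same strand, which had 0 counts in every library. Pseudogenes on the opposite strand cover 17.8% of the exon bases of HLA-B (AL671883.2) and 16.1% of those of HLA-F (AL645939.1). How reads in such bases were counted is not given, so levels per kilobase of these genes, and ratios to TAP2, are uncertain. HLA-F (chr6:29722775-29738528), HLA-E (chr6:30489467-30494205), HLA-C (chr6:31268749-31272130) and HLA-B (chr6:31269491-31357188) are close relatives of each other. Reads of such relatives, and of alleles that differ from the reference, may be split or lost in counting, so the HLA counts are uncertain.

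RefSeq promoter windows (GRCh38.p14, 250 bases before to 50 after a start) were found for 8 of the 9 genes, in 10 windows, and HLA-E had none. Windows of 5 genes are printed because these genes fall into the different patterns of the results: TAP1, PSMB9 and HLA-F were lower in number 2, and HLA-B and B2M did not pass that test. Capitals mark matches to the core of the interferon-stimulated response element (ISRE), which is GAAA, any 2 bases, and GAAA again, and to the NF-kB consensus, on either strand.
TAP1 (chr6:32853655-32853954, minus strand): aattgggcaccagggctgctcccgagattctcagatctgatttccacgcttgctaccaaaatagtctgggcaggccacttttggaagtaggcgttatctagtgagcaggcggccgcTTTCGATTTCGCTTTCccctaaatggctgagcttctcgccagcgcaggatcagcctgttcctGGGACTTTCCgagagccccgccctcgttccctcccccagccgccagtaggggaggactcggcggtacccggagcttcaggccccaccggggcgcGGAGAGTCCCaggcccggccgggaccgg
PSMB9 (chr6:32853942-32854241, plus strand): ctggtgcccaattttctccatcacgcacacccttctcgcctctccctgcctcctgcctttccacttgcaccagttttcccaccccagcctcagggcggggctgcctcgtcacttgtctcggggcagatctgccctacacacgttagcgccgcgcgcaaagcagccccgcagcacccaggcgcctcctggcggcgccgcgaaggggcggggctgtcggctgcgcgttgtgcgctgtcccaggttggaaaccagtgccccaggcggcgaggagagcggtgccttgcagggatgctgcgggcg
HLA-F (chr6:29723184-29723483, plus strand): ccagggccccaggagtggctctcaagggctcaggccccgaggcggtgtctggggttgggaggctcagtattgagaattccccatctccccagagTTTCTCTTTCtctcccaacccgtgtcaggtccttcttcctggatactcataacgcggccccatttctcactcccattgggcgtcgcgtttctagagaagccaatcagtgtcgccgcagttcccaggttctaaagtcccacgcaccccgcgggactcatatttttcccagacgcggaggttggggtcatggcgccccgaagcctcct
HLA-B (chr6:31357130-31357429, minus strand): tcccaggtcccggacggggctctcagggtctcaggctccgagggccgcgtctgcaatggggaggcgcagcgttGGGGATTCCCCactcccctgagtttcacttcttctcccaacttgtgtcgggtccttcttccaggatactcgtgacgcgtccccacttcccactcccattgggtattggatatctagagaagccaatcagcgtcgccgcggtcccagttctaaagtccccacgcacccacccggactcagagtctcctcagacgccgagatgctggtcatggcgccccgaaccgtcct
B2M (chr15:44711267-44711566, plus strand): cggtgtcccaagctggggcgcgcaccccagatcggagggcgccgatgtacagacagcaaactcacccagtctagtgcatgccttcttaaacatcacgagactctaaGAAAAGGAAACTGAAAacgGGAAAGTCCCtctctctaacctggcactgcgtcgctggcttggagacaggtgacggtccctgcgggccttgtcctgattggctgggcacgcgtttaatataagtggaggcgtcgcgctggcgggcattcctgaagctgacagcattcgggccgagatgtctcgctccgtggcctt
The ISRE core was found in windows of 5 of the 8 genes, TAP1, TAP2, PSMB8, HLA-F and B2M, against 3.57% of 35116 windows of the same length. For each motif a gene counted if any of its windows matched, whereas the background is a share of single windows. TAP1 and PSMB8 had an additional window, so the units are not quite alike. TAP1 and B2M each held 2 overlapping matches. The NF-kB consensus was found in TAP1, B2M, HLA-B and HLA-C, against 11.3% of all windows, and in HLA-B the marked stretch holds overlapping matches on both strands. CCAAT was found in 6 of the 8 genes, against 34.6% of windows, and TGACG also in 6, against 24.6%. These are matches of letters in the reference, not sites shown to be in use, and the sequence of the cells was not read. Only the exact ISRE letters given above were searched. Forms that differ from them, such as tttcacttct in the HLA-B window, were not counted, so a gene without a match may still hold such an element.

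Library totals ran from 14792869 to 16777792 counts, with 6.19% to 7.03% of counts in mitochondrially encoded genes. The introduced gene, SIX2, had 605 and 379 counts in the SIX2-labelled libraries 2 and 1, and 597 and 369 in controls 2 and 1, so that its level followed the number and not the label (log2 change of SIX2-labelled over control 0.02, SE 0.37). Directions below are therefore between libraries labelled SIX2 overexpression and control. Log2 levels correlated across genes at 0.987 and 0.991 between libraries of the same number and at 0.916 to 0.917 between libraries of different numbers (genes are not independent replicates). Epithelial keratins KRT8 and KRT18 were abundant, at 1707 to 3549 and 763 to 1538 counts per 1000000 (CPM). KRT19, named after its values were seen, had 5 counts over all libraries but is high in many gastric epithelial cells, and CEACAM5 had 0 counts in number 2 and 1.94 and 1.14 CPM in number 1. Whether the cells are MKN-45 was not tested. Of 13 immune cell markers, 11 were under 1 CPM in every library, among them PTPRC (CD45) with 0 counts, and the list summed to 5.38 to 6.28 CPM.

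Levels are given as CPM of a library size scaled by TMM factors, and, where different genes are set against each other, as CPM per kilobase of exon. Per kilobase, averaged over the 4 libraries, B2M stood at 277, HLA-C at 78.2, HLA-B at 46.4, HLA-E at 31.3, PSMB8 at 24.3, TAP1 at 21.6, PSMB9 at 11.2, TAP2 at 7.35 and HLA-F at 2.73. The exon length of 6079 bases listed for B2M joins all its annotated transcripts, which understates its level. Lengths of all the other genes were built in the same way. Levels per kilobase, their order and ratios between genes per kilobase therefore carry this limit, to a different degree in each gene. The order of neighbours was not the same in all libraries: TAP1 averaged 10.6 CPM per kilobase in number 2 and 32.7 in number 1. It lay below PSMB8 (19.1) and HLA-E (36.2) in number 2, and above PSMB8 (29.6) and HLA-E (26.5) in number 1. HLA-B and HLA-E, at 32.5 and 32.0 per kilobase in control 2, did not differ there beyond counting error.

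**Figure D1:**
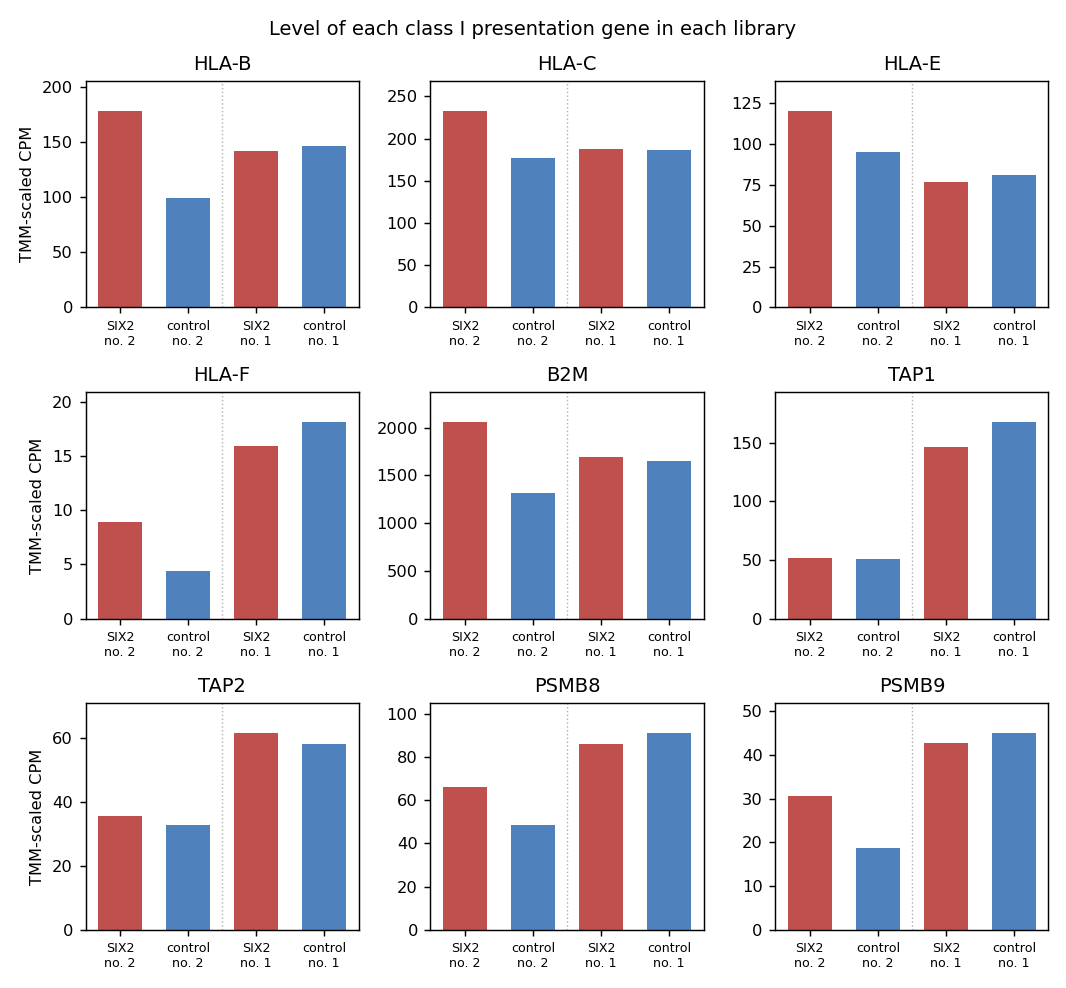
Each panel shows 1 gene, with the TMM-scaled CPM on the y axis from 0 and 1 bar per library (red SIX2-labelled, blue control, number 2 left of the dotted line and number 1 right of it). TAP1, TAP2 and HLA-F are lower in both libraries numbered 2 than in both numbered 1, and for HLA-B and B2M the control numbered 2 is the lowest bar and the SIX2-labelled library numbered 2 the highest.

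The peptide transporter, the immunoproteasome subunits PSMB8 and PSMB9, and HLA-F were lower in number 2 than in number 1, while HLA-E was higher. Of the 9 genes, 5 were lower and 1 was higher by edgeR's quasi-likelihood test at a Benjamini-Hochberg adjusted p under 0.05. Over all tested genes 21.6% were lower and 22.2% higher, 43.8% in all, so the 6 calls of 9 stand against a high background of calls. Their median log2 change was -0.63, against 0.01 over all tested genes, whose middle 90% ran from -1.35 to 1.69. Each number holds 1 library of each label, so p-values measure the spread between those, which may be technical. In bulk RNA, fewer cells of a type and less RNA per cell cannot be told apart.

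TAP1, the subunit of the transporter that was most different, was at 51.5 and 50.7 CPM in the SIX2-labelled and control libraries numbered 2, against 146 and 168 CPM in those numbered 1. Both libraries numbered 2 were low, without overlap, and they differed from each other by less than those numbered 1 did. The log2 change was -1.62 (SE 0.11, adjusted p = 2.10e-07, edgeR), a level 3.07-fold lower in number 2. Its partner TAP2 was at 35.7 and 32.6 CPM in number 2, against 61.5 and 58.0 CPM in number 1 (log2 change -0.81, SE 0.12, adjusted p = 0.000110, edgeR). Again both libraries of a number lay close together and the numbers did not overlap.

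PSMB8, which takes the place of PSMB5, was at 66.2 and 48.3 CPM in the SIX2-labelled and control libraries numbered 2, against 86.1 and 91.2 CPM in those numbered 1. The numbers did not overlap, although the libraries numbered 2 lay further apart than those numbered 1. The log2 change was -0.63 (SE 0.14, adjusted p = 0.00250, edgeR). PSMB9, which takes the place of PSMB6, was at 30.6 and 18.7 CPM in number 2, against 42.7 and 45.0 CPM in number 1. Here too the numbers did not overlap and the control numbered 2 was the lowest (log2 change -0.83, SE 0.18, adjusted p = 0.00230, edgeR).

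HLA-F, a non-classical heavy chain that binds receptors of natural killer cells, had 140 and 74 counts in number 2, against 262 and 272 counts in number 1. That is 8.87 and 4.43 CPM in number 2, against 15.9 and 18.2 CPM in number 1, with no overlap and the control numbered 2 lowest. The log2 change was -1.36 (SE 0.25, adjusted p = 0.000734, edgeR). HLA-E, the other non-classical heavy chain, which presents leader peptides of other class I chains to natural killer cells, went the other way. It was at 120.2 and 95.2 CPM in number 2, against 76.7 and 80.7 CPM in number 1 (log2 change 0.45, SE 0.12, adjusted p = 0.0101, edgeR). Its call was lost without SIX2-labelled library 1 (adjusted p = 0.108, edgeR) or without control 1 (adjusted p = 0.0510, edgeR), with log2 changes of 0.41 and 0.48.

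The classical heavy chains HLA-B and HLA-C and the light chain B2M did not pass the test between numbers. HLA-B was at 178 and 99.1 CPM in the SIX2-labelled and control libraries numbered 2, against 142 and 146 CPM in those numbered 1. The libraries numbered 2 lay on either side of those numbered 1 (log2 change -0.06, SE 0.19, adjusted p = 0.840, edgeR). HLA-C was at 233 and 177 CPM in number 2, against 188 and 186 CPM in number 1, and B2M at 2063 and 1316 CPM in number 2, against 1692 and 1656 CPM in number 1. Both overlapped in the same way. The log2 change of HLA-C was 0.13 (adjusted p = 0.429, SE 0.13) and that of B2M 0.01 (adjusted p = 0.958, SE 0.16), by edgeR. Which library stood for number 2 decided these values. Without control 2, HLA-B, HLA-C and B2M were all called higher in number 2, by 0.32, 0.33 and 0.32 on the log2 scale (adjusted p = 0.00173, 0.000717 and 0.000277, edgeR). Without SIX2-labelled library 2, HLA-B and B2M were called lower, with log2 changes of -0.54 and -0.35 (adjusted p = 4.04e-07 and 0.000117, edgeR), and HLA-C had -0.08 (adjusted p = 0.517).

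**Figure D2:**
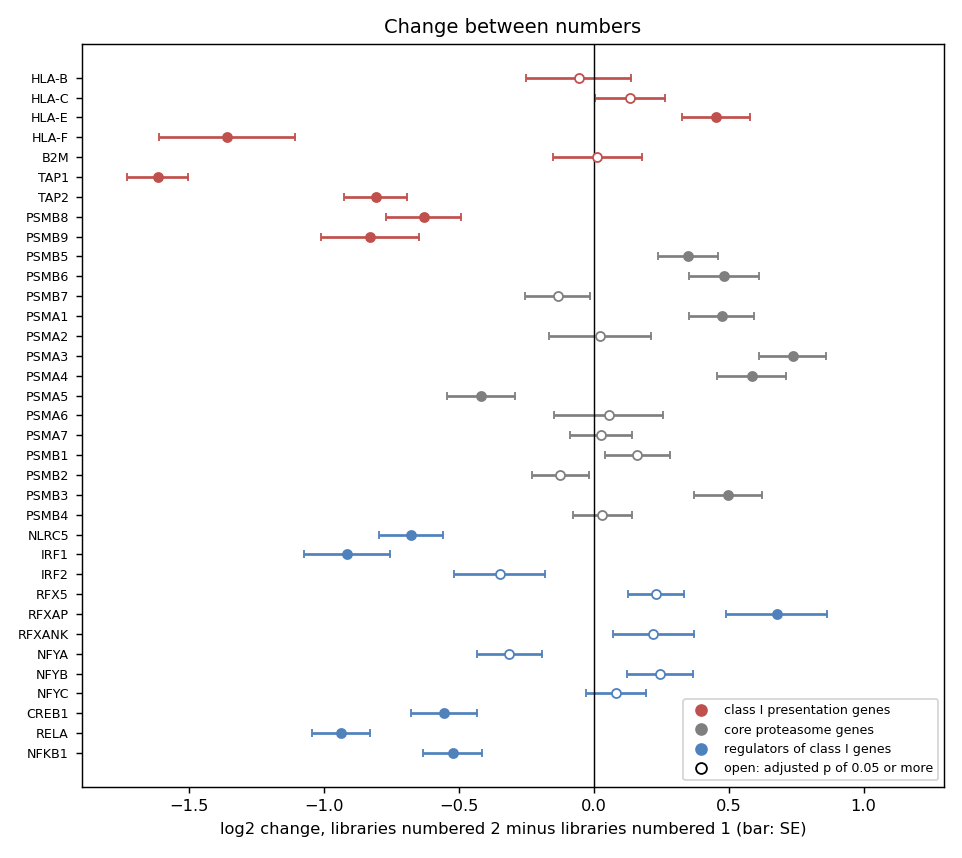
The log2 change of libraries numbered 2 minus libraries numbered 1 is on the x axis, with its standard error, for the 9 class I presentation genes (red), 14 core proteasome genes (grey) and 12 regulators of class I genes (blue), and open points have an adjusted p of 0.05 or more. TAP1 at -1.62 and HLA-F at -1.36 lie furthest left, while PSMB5 and PSMB6 lie right of 0 and PSMB8 and PSMB9 left of it.

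Of 14 genes of the core particle of the standard proteasome, 6 were higher and 1, PSMA5, lower in number 2, against 22.2% higher and 21.6% lower over all tested genes (edgeR). Their median log2 change was 0.11, against 0.01 over all tested genes, and the list as a whole was not tested. PSMB6, a standard catalytic subunit, was at 142 and 109 CPM in number 2, against 88.6 and 90.8 CPM in number 1 (log2 change 0.48, SE 0.13, adjusted p = 0.00844, edgeR). PSMB5 was at 159 and 142 CPM in number 2, against 112 and 124 CPM in number 1 (adjusted p = 0.0219, edgeR). The structural subunits PSMA3, PSMA4, PSMB3 and PSMA1 had log2 changes of 0.74, 0.59, 0.50 and 0.47. Of the genes linked to the immunoproteasome and the activators of proteasomes, the interferon-induced activator subunits PSME1 and PSME2 were also higher in number 2. PSME1 changed by 0.50 (adjusted p = 0.0108, SE 0.14) and PSME2 by 0.47 (adjusted p = 0.00735, SE 0.12, edgeR) on the log2 scale. The third immunoproteasome subunit, PSMB10, at 7.99 and 5.14 CPM in number 2 against 7.04 and 8.41 CPM in number 1, did not pass the test (adjusted p = 0.462, edgeR).

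Ratios between genes of the same library do not depend on how libraries are scaled. Per kilobase of exon, PSMB8 stood at 0.246 and 0.200 of PSMB5 in the SIX2-labelled and control libraries numbered 2, against 0.453 and 0.432 in those numbered 1. PSMB9 stood at 0.101 and 0.0812 of PSMB6 in number 2, against 0.227 and 0.234 in number 1. For both pairs the 95% counting intervals of the numbers were apart, and both libraries numbered 2 had the lower ratio of immune to standard subunit. The third pair did not follow: PSMB10 stood at 0.0363 and 0.0290 of PSMB7 in the SIX2-labelled and control libraries numbered 2, against 0.0340 and 0.0367 in those numbered 1, with overlapping intervals. TAP1 stood at 1.92 and 2.07 times TAP2 in number 2, against 3.15 and 3.85 times in number 1. Intervals are exact binomial and cover counting error only.

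**Figure D3:**
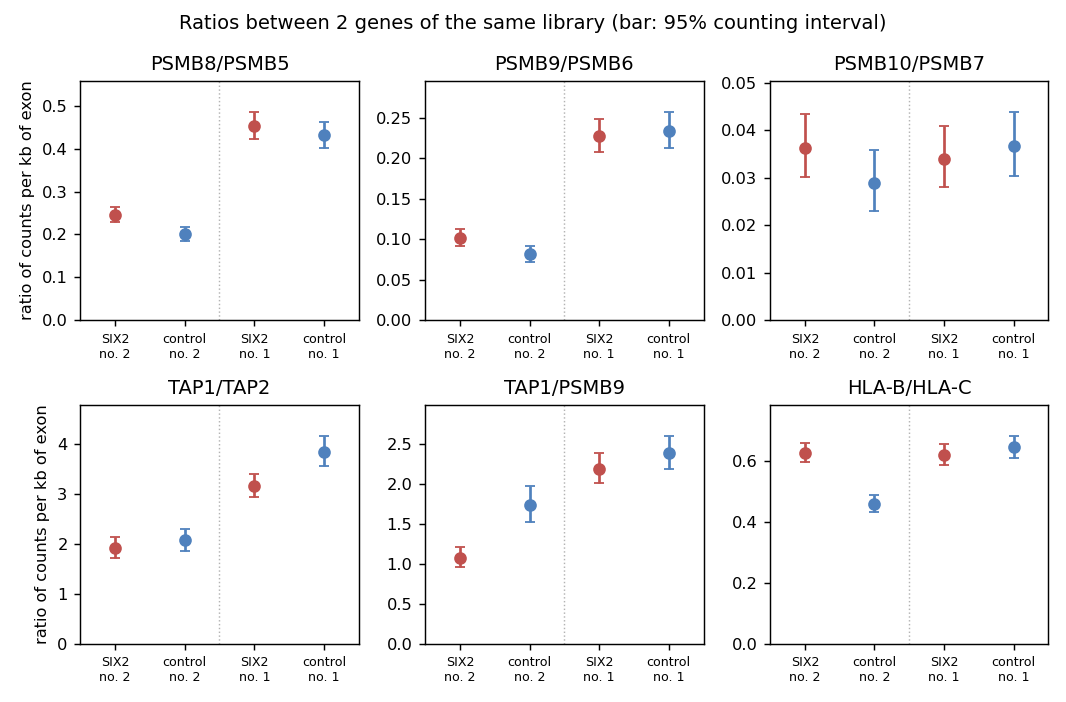
Each panel gives the ratio of 2 genes' counts per kilobase of exon in each library, from 0, with 95% exact binomial intervals that cover counting error only (red SIX2-labelled, blue control, number 2 left of the dotted line). PSMB8/PSMB5 and PSMB9/PSMB6 are lower in both libraries numbered 2, PSMB10/PSMB7 overlaps between numbers, and HLA-B/HLA-C is lowest in the control numbered 2, at 0.460 against 0.629, 0.622 and 0.646 in the others.

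Of 12 regulators of class I genes, 5 were lower and 1, RFXAP, higher in number 2 (edgeR), against the 21.6% and 22.2% of all tested genes. NLRC5, the coactivator named above, had 56.5 and 67.9 CPM in the SIX2-labelled and control libraries numbered 2, against 102 and 97.0 CPM in those numbered 1 (log2 change -0.68, SE 0.12, adjusted p = 0.000479, edgeR). The NF-kB subunit RELA was at 96.2 and 88.2 CPM in number 2, against 174 and 179 CPM in number 1 (log2 change -0.94, SE 0.11, adjusted p = 1.49e-05, edgeR). IRF1, an activator of TAP1 and PSMB9 among other genes, was at 22.8 and 16.0 CPM in number 2, against 37.0 and 36.1 CPM in number 1 (log2 change -0.92, SE 0.16, adjusted p = 0.000482, edgeR). NFKB1 and CREB1 had log2 changes of -0.52 and -0.56. In these regulators, as in TAP1 and TAP2, the numbers did not overlap.

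Among 12 genes of interferon receptors and JAK-STAT signalling, 4 were lower and 1 higher in number 2, a share of calls near the 43.8% of all tested genes. On the log2 scale the kinase gene JAK2 changed by -0.98 (adjusted p = 0.000162, SE 0.15, edgeR) and its relative JAK1 by -0.49 (adjusted p = 0.00232, SE 0.11). IFNGR1, a subunit of the interferon gamma receptor, changed by -0.68 (adjusted p = 0.000544, SE 0.12, edgeR). The type I receptor gene IFNAR1 was higher, with a change of 0.55 (adjusted p = 0.000998, SE 0.11, edgeR). Of 8 interferon genes 7 were under 1 CPM in every library. IFNL1, the remaining one, was at 0.127 and 0.0598 CPM in number 2, against 1.94 and 2.67 CPM in number 1. Of 15 interferon-stimulated genes, 9 were lower and 1 higher in number 2, against 21.6% lower and 22.2% higher over all tested genes. OAS2 and OAS1 had log2 changes of -2.99 and -1.32, and MX1, the higher one, had 1.51 (adjusted p = 0.00117, edgeR).

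Of 7 genes of peptide loading, trimming and export, 1 was lower and 1 higher in number 2, where 43.8% of all tested genes were called in either direction. The chaperone gene CALR was at 916 and 780.1 CPM in number 2, against 1030 and 1073 CPM in number 1 (log2 change -0.31, SE 0.11, adjusted p = 0.0410, edgeR). The peptide editor gene TAPBPL changed by 0.73 (adjusted p = 0.0180, SE 0.22, edgeR), whereas TAPBP, the tapasin gene that bridges TAP and the heavy chain, had -0.15 (adjusted p = 0.263, edgeR). Of 11 class I-related genes 8 were tested, with 2 higher and 1 lower in number 2. HFE, an iron regulator with a class I fold, had a log2 change of 0.73 and FCGRT of 0.63, while MICB, a ligand of the NKG2D receptor, had -0.67. HLA-G had 1 count in all. Of 10 class II genes 8 were under 1 CPM in every library. HLA-DMA, which helps to load class II molecules, was higher in number 2, at 6.34 and 6.70 CPM in number 2, against 3.70 and 3.81 CPM in number 1 (log2 change 0.80, adjusted p = 0.0152, edgeR). CIITA, the class II coactivator, was tested and not called (log2 change 0.55, adjusted p = 0.246, edgeR).

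Outside the 9 genes and the lists used here, 118 protein-coding genes lay between the start of HLA-F and the end of HLA-DPB1. Listed genes such as MICB and HLA-DMA are thus not counted. Of the 118, 77 were tested, and 20 were lower and 3 higher in number 2 (median log2 change -0.13). Over all tested genes 21.6% were lower and 22.2% higher. TRIM31, TRIM15 and TNXB, the neighbours with the smallest adjusted p, had log2 changes of -3.42, -2.58 and -1.92. Levels of some markers of other cell types also differed between numbers. The 8 stromal and endothelial markers summed to 295 and 300 CPM in number 2, against 70.2 and 66.6 CPM in number 1, of which COL1A1 made 274 and 280 CPM in number 2, against 56.9 and 54.1 CPM in number 1. PDGFRB, a growth factor receptor of stromal cells, was the other marker of this list called higher in number 2. It was at 4.18 and 9.03 CPM in number 2, against 1.46 and 1.80 CPM in number 1 (log2 change 2.02, SE 0.38, adjusted p = 0.000752, edgeR). The list did not move together. COL1A2 had 0 counts in both libraries numbered 2 and 1 count in control 1. COL3A1 was at 0.444 and 0.478 CPM in number 2, against 1.03 and 0.735 CPM in number 1, and was not called. CDH5 and ACTA2 were tested and not called (adjusted p = 0.259 and 0.160, edgeR). The 8 epithelial markers summed to 5421 and 4124 CPM in number 2, against 2792 and 2855 CPM in number 1, a sum carried by KRT8 and KRT18. Of the 7 epithelial markers tested, these 2 were higher and 3 were lower in number 2, namely the E-cadherin gene CDH1 (log2 change -1.67), the claudin gene CLDN4 (-0.75) and CEACAM5. Their part in the results was not tested.

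Between the SIX2-labelled and control libraries over both numbers, 0 of the 9 genes passed the test. Of all 16343 genes 0.00% passed by edgeR, with 12 at an unadjusted p under 0.05, and DESeq2 and limma-voom called 0 with 7 and 10. No gene among the 9 had an unadjusted p under 0.05, the lowest being 0.196 for B2M (edgeR). B2M averaged 1877 ± 263 CPM in SIX2-labelled libraries and 1486 ± 241 CPM in controls (SD, n = 2 each; log2 change 0.34, SE 0.22, adjusted p = 1.00, edgeR). HLA-B averaged 160.3 ± 25.6 CPM in SIX2-labelled libraries and 123 ± 33.4 CPM in controls (SD, n = 2 each; log2 change 0.39, SE 0.29, adjusted p = 1.00, edgeR). Changes ran from -0.15 for TAP1 to 0.39 for HLA-B, with a median of 0.16, against 0.00 over all tested genes. The standard errors ran from 0.22 to 0.76, so changes of the size seen here could not be told from 0 in this fit. It leaves the difference between numbers in its spread. The common coefficient of variation between libraries was 45.0% in it, against 10.7% with number as a term, where 0 of the 9 genes passed as well.

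Within number 2 all 9 genes were above the control in the SIX2-labelled library, whereas within number 1 they lay close to it. Over all tested genes 50.6% were above the control within number 2 and 50.3% within number 1, and over those with a mean of 10 CPM or more 52.4% and 51.8%, in the same order. Past 1.5-fold higher within number 2 were 4 of the 9, HLA-F, HLA-B, PSMB9 and B2M, against 6.0% of all tested genes, and none was past 1.5-fold lower, against 7.73%. Within number 1 none was past 1.5-fold, against 5.08% of all tested genes higher and 5.04% lower, and 3 were above the control and 6 below it. The median log2 change of the 9 was 0.45 within number 2 and -0.07 within number 1, against 0.01 and 0.00 over all tested genes. Each number has 1 library per group, so these values describe those libraries without a check from replicates. Whether the numbers differ in this was not tested.

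HLA-F, with the fewest counts, had 140 against 74 counts in the SIX2-labelled library and control numbered 2, a ratio of 2.01 (95% counting interval 1.502 to 2.69), and 0.875 (0.736 to 1.04) in number 1. HLA-B had a ratio of 1.80 (1.69 to 1.91) in number 2 and 0.971 (0.916 to 1.03) in number 1. PSMB9 had a ratio of 1.64 (1.42 to 1.89) in number 2 and 0.948 (0.852 to 1.06) in number 1. In these genes the interval in number 1 covers equality and that in number 2 does not. B2M had a ratio of 1.57 (1.54 to 1.60) in number 2 and 1.02 (1.004 to 1.04) in number 1, the narrowest intervals of the 9. Neither interval of B2M covers equality. PSMB8, HLA-C and HLA-E followed with ratios of 1.37, 1.32 and 1.26 in number 2, and 0.945, 1.01 and 0.951 in number 1. HLA-B stood at 0.629 of HLA-C per kilobase in SIX2-labelled library 2, against 0.460 in control 2.

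The transporter genes differed least within number 2. TAP1 had a ratio of 1.02 (0.923 to 1.12) and TAP2 of 1.09 (0.972 to 1.23), both intervals covering equality. In number 1, TAP1 had a ratio of 0.869 (0.821 to 0.919) and TAP2 of 1.06 (0.968 to 1.16). PSMB9, whose start lies next to that of TAP1 in the windows printed above, was thus 1.64-fold higher in SIX2-labelled library 2 while TAP1 differed by less than its counting error. TAP1 stood at 1.08 times PSMB9 per kilobase in SIX2-labelled library 2 and at 1.73 times in control 2, and at 2.19 and 2.38 times in the SIX2-labelled and control libraries numbered 1.

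**Figure D4:**
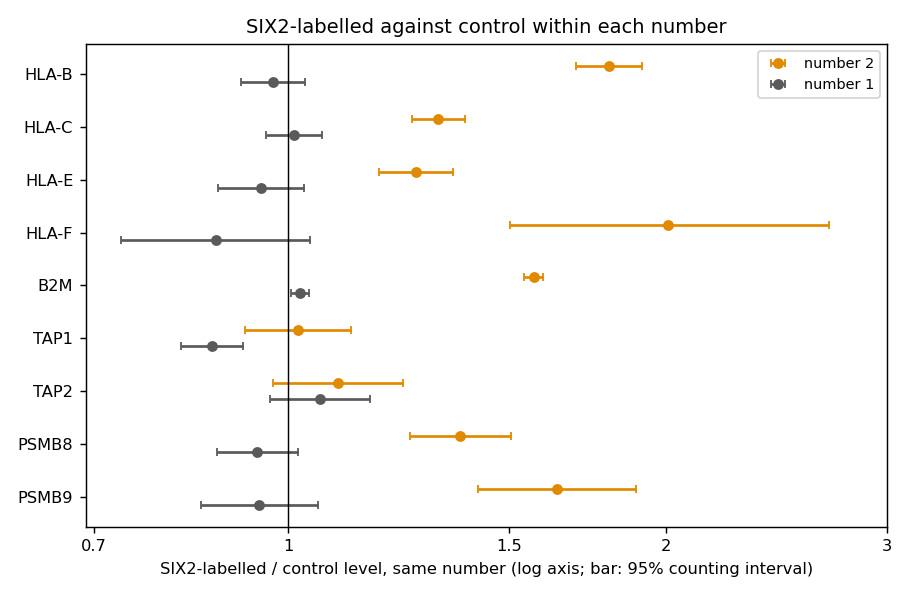
The x axis, on a log scale, gives the level in the SIX2-labelled library divided by that in the control of the same number, with 95% exact binomial intervals that cover counting error only (orange number 2, above grey number 1, for each gene). In number 2 all points but those of TAP1 and TAP2 lie clear of 1, up to 2.01 for HLA-F, and in number 1 they lie between 0.869 and 1.06.

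Other genes of the pathway within number 2 gave a mixed picture. The counts below stand against 50.6% of all tested genes above the control within number 2 and 50.3% within number 1. The lists as wholes were not tested. Of the 14 core proteasome genes 13 were above the control in SIX2-labelled library 2 (median log2 change 0.26) and 4 within number 1 (median -0.06). Of the 5 immunoproteasome partners and activators 4 were above it within number 2 (median 0.43) and 2 within number 1 (median -0.02). Outside the pathway, 7 of 7 tested epithelial markers were above the control within number 2 (median 0.40) and 3 within number 1. Of 5 tested stromal and endothelial markers 2 were above it within number 2 (median -0.03). Of 7 loading and trimming genes 5 were above the control within number 2 and also 5 within number 1. Within number 2, CALR and TAPBPL had log2 changes of 0.23 and 0.41, and CANX had -0.12. Among regulators, 6 of 12 were above the control within number 2 and 8 within number 1. Within number 2, NLRC5 and IRF1 stood on opposite sides with log2 changes of -0.26 and 0.52. Of the 15 interferon-stimulated genes 14 were above the control within number 2, with a median log2 change of 0.68, against 7 and 0.00 within number 1. Changes also went with exon length, with a Spearman correlation over the 16343 tested genes of -0.24 within number 2 and 0.15 within number 1 (genes are not independent). With that trend subtracted, log2 changes of the 9 class I presentation genes within number 2 ran from 0.0155 for TAP1 to 0.98 for HLA-F. TAP2 was at 0.18, B2M at 0.68 and HLA-C at 0.32. All 9 were thus above 0, TAP1 by less than its counting error. The part of exon length in the pattern was not tested.

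The genes whose pattern over the 4 libraries lay closest to the members' median were CDKN1A, CHPF, CTSL, CST3, AGTRAP and LAMTOR1, out of 4684 protein-coding genes with a mean of at least 50 CPM outside the lists. Their root-mean-square distance from it was 0.0258 to 0.0516 on the log2 scale, over 4 libraries. Among the 9 genes themselves PSMB8 was nearest to the median, at 0.0350, and TAP1 and HLA-E were furthest, both at 0.52.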

How the data were processed

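The authors deposited 1 file per library that lists raw counts by Ensembl gene, per the file headers. Nothing had been normalized, since the values are whole numbers. RNA was extracted with Trizol and sequenced from TruSeq libraries, per the labels' protocols. Aligner, counter and strand setting: not given in the sources used here. In the submitters' processing notes the build is mm9, but all 58735 gene identifiers and coordinates matched human GENCODE release 29 (GRCh38).

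Counts were tested in R 4.3.3 with edgeR 4.0.16: filterByExpr, TMM scaling, quasi-likelihood F test, Benjamini-Hochberg adjustment over all 16343 tested genes, threshold 0.05. Standard errors come from the F statistic. Ratios within a number use TMM-scaled library sizes and exact binomial 95% intervals. Counting intervals cover counting error only, and nothing says that replicates were separate cultures. Exon lengths are those in the files. The edgeR fits were run on simulated counts with known changes between the compared groups only. Counts simulated for SIX2-labelled against control held no difference between numbers. They therefore do not show how that test performs in these libraries. Alternatives used DESeq2 1.42.0, limma 3.58.1, other scalings, no filter, a length trend and leaving out each library.

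All 9 members were described. From each list up to 4 genes with the smallest adjusted p between numbers were named. Nearest genes were ranked by distance of centred log2 CPM, and 3 MHC neighbours were named by adjusted p. Members, lists and tests were chosen with earlier results of these data known. A few genes beyond the rule are named for a count or a ratio.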

Additional observations from a re-analysis of the deposited data

Results flagged for a closer look

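For 6 of the 9 genes the SIX2-labelled library was above the control within number 2 and below it within number 1. HLA-B differed by 0.85 on the log2 scale in number 2 and by -0.04 in number 1. These log2 differences were 0.34 and -0.07 for HLA-E, and 1.00 and -0.19 for HLA-F. They were 0.0248 and -0.20 for TAP1, 0.45 and -0.08 for PSMB8, and 0.71 and -0.08 for PSMB9, in the same order. For HLA-B, HLA-E, HLA-F, PSMB8 and PSMB9 the counting interval of the ratio in number 1 covered equality. For TAP1 the interval in number 2 did (0.923 to 1.12). None of the 6 genes was thus beyond counting error in both directions. Over all tested genes 50.6% were above the control within number 2 and 50.3% within number 1, and the share with opposite signs is not given here. Each number holds 1 library per group, and the difference between the numbers was not tested.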

How the results depend on the processing

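The counts of members called, and of members above the control within each number, were the same or within 1.5 times under all alternatives run. The count of all genes called between SIX2-labelled and control libraries was 8 with number as a replicate block, against 0 without it, and 0 of the 9 genes was among them (adjusted p = 1.00 for each, edgeR). The titles' numbers alone link the samples, with only 2 pairs (correlation of deviations 0.865 in each). Between numbers, leaving out a library gave 4853 to 8416 called genes, against 7151, and 5 to 9 of the 9 genes. B2M, with a log2 change of 0.01 between numbers, had -0.0228 both with limma-voom and with group as a term. Leaving out 1 library turned directions that had not passed. Between numbers log2 changes then ran from -0.54 to 0.32 for HLA-B, -0.0776 to 0.33 for HLA-C and -0.35 to 0.32 for B2M. Between SIX2-labelled and control libraries they ran from -0.20 to 0.45 for HLA-E, -0.55 to 1.49 for HLA-F, -1.09 to 0.97 for TAP1, -0.35 to 0.58 for TAP2, -0.25 to 0.66 for PSMB8 and -0.29 to 0.97 for PSMB9. Leaving out a library unbalances the numbers, so these fits mix both contrasts, and a lone library was taken to vary like the rest. With all libraries kept, 165 of 171 values of single genes under the alternatives stayed near the reported ones or on the same side of the threshold. Besides B2M, a length trend, subtracted between numbers as an alternative chosen after seeing the data, gave -1.74 for TAP1, -0.93 for TAP2 and -0.11 for B2M, and within number 2 it gave 0.68 for B2M and 0.32 for HLA-C. HLA-F, with 74 counts in control 2, is limited most by depth.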
